A study of Mus musculus with 11 samples.

Results

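Dendritic cell markers were followed in macrophages sorted from mouse mammary tumours. The 9 genes were Batf3, Zbtb46, Flt3, Xcr1, Clec9a, Cd209a, Itgae, Dpp4 and Ccr7. They were chosen by name, and all 9 were found among the 17475 genes of the deposited expression table. The study asked how gene expression differs between 2 kinds of tumour macrophage, and between tumours of control-PyMT and MYC-PyMT mice, under a low protein diet. There were 11 RNA-seq libraries from 6 female mice backcrossed to B6. Tumour-associated macrophages (TAMs, of the tumour parenchyma) were sorted as F4/80+ Vcam+ cells and mammary tissue macrophages (MTMs, of the stroma) as F4/80+ Vcam- FOLR2+ cells. Both sorts took DAPI- CD45+ cells without SiglecF, Ly6G, B220 or Ly6C, and none of the 9 gene products was part of the gate.

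Mice of every group carried PyMT, the polyoma middle T oncogene that drives mammary tumours. All were lethally irradiated at 7 weeks of age, were rescued with 3 M (M for mega) bone marrow cells of wild-type B6 donors, and spent 6 weeks on the low protein diet, which began 2 weeks after the transplant. Control mice 1, 3 and 5 had PyMT alone and gave 3 TAM and 3 MTM libraries. MYC mice 2, 4 and 6 had the genotype S100a8-creRosa26-LSL-MYCPyMT and gave 3 TAM libraries, and mice 2 and 4 also gave 2 MTM libraries. In that genotype a Cre driven by the S100a8 promoter, which is active in the neutrophil and monocyte lineage, removes a stop cassette in front of a MYC transgene. Because the marrow came from wild-type donors, the transgene was carried by the host's cells, and the labels do not give the share of sorted cells that were of host origin. Every library came from that diet, and diets are therefore not compared here.

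Dendritic cells take up antigen, carry it to lymph nodes and present it to T cells, and in tumours they are commonly told from macrophages by a small set of transcripts. Type 1 conventional dendritic cells (cDC1s) depend on the transcription factors BATF3 and IRF8 and display XCR1 and CLEC9A. Type 2 cells (cDC2s) rely more on IRF4, and the Zbtb46 gene, the cytokine receptor FLT3 and, on migration, the chemokine receptor CCR7 are shared by conventional dendritic cells. Several of these genes are not exclusive to dendritic cells, since CD209a, CD103 (the product of Itgae) and DPP4 are also found on monocyte-derived cells or lymphocytes.

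RefSeq promoter windows on GRCm38.p6 were at hand for 7 of the 9 genes (not Itgae or Ccr7). The 250 bases before the start are shown for Batf3 and Dpp4, which were both lower in MYC TAMs, and for Cd209a, which separated the macrophage types. Capitals mark matches to the letters CACGTG (the E-box bound by MYC and its partner), GAAA, any 2 bases and again GAAA (an interferon regulatory factor motif) or GAGGAA (a PU.1 motif), searched on both strands together with TGANTCA (the AP-1 motif of BATF factors).
Batf3, chr1:191098164-191098413, plus strand: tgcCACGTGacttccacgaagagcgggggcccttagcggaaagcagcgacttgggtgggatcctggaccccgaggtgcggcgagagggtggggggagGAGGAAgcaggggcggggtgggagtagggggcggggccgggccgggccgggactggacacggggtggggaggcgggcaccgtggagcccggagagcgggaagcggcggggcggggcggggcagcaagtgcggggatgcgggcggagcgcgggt
Dpp4, chr2:62412232-62412481, minus strand: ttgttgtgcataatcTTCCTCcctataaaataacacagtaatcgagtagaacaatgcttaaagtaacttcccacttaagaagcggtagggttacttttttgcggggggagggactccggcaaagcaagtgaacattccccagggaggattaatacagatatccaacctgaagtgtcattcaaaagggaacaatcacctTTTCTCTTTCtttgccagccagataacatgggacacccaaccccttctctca
Cd209a, chr8:3748985-3749234, minus strand: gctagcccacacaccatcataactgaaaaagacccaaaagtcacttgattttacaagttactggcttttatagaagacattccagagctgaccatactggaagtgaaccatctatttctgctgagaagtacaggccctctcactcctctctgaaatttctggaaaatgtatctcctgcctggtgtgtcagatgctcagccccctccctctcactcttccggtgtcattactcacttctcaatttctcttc
The window searched also held the 50 bases after the start. Batf3 had CACGTG at position -247 and GAGGAA at -153 from the start, while Dpp4 had GAGGAA at -235 and the interferon regulatory factor motif at -52, both on the opposite strand. The Cd209a and Clec9a windows held none of the 4 motifs. CACGTG was also present in the windows of Xcr1 (position -227) and Flt3 (position 4), and TGANTCA in that of Zbtb46 (position -61). Of 32851 mouse promoter windows of the same length, 7.15% held CACGTG, 3.44% the interferon regulatory factor motif, 28.3% GAGGAA and 7.81% TGANTCA. The GENCODE gene model of Batf3 begins upstream of the RefSeq start, at base 191097847 of chromosome 1, so the window shown lies inside that model. The Zbtb46 window likewise lies inside its GENCODE model, which begins at base 181459426 of chromosome 2.

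The libraries held 24.8 to 31.8 M reads in genes, recovered from the spacing of the deposited values. All levels below are the deposited log2 values, which are scaled for depth and gene length and lie near 0 for a gene without reads. The sorted populations carried macrophage transcripts: all 28 measured macrophage core genes had reads in every library, and their summed linear level (log2 undone and the constant of 1.00 taken off) was 2827 to 4637, against 1.05 to 88.5 for the 9 dendritic cell markers. Such sums depend on which genes are taken and how many. A list of 11 other cDC1 genes summed to 384 to 516, and 12 epithelial genes to 47.6 to 2742. The MYC TAM library of mouse 4 stood apart, with 616 genes without a read against 2119 to 3853 in the other libraries, and it was also the shallowest. The reads of the 9 markers are therefore given by library. In the bulk libraries fewer cells of a type and less RNA per cell cannot be told apart.

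The 9 markers split into well detected genes and genes at the edge of detection. In control TAMs the order of mean levels was Batf3 (3.83 ± 0.12, SD, n = 3), Dpp4 (3.15 ± 0.29), Itgae (2.03 ± 0.48), Cd209a (0.72 ± 0.11), Clec9a (0.36 ± 0.22), Flt3 (0.28 ± 0.11), Ccr7 (0.22 ± 0.09), Xcr1 (0.057 ± 0.032) and Zbtb46 (0.035 ± 0.012). Neighbours in that order from Clec9a to Ccr7 lay within their spread of each other. In control MTMs Cd209a led (5.36 ± 1.03), followed by Batf3 (4.17 ± 0.27), Dpp4 (2.33 ± 0.45), Itgae (1.31 ± 0.30) and Flt3 (0.69 ± 0.34), and the other 4 markers lay between Xcr1 (0.075 ± 0.026) and Zbtb46 (0.19 ± 0.07). For comparison on the same length-scaled level, Csf1r, the receptor that maintains macrophages, stood at 10.47 ± 0.25 in control TAMs. In MYC TAMs Batf3 (1.43 ± 0.38) was the highest, followed by Itgae (0.56 ± 0.82) and Dpp4 (0.32 ± 0.40), whose SDs exceeded their means. The order in MYC MTMs was Cd209a (2.94 ± 1.11, n = 2), Batf3 (2.28 ± 0.15), Flt3 (1.44 ± 0.015), Dpp4 (1.44 ± 0.67) and Itgae (1.00 ± 0.075), in which the spread of Cd209a spanned Batf3.

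**Figure D1:**
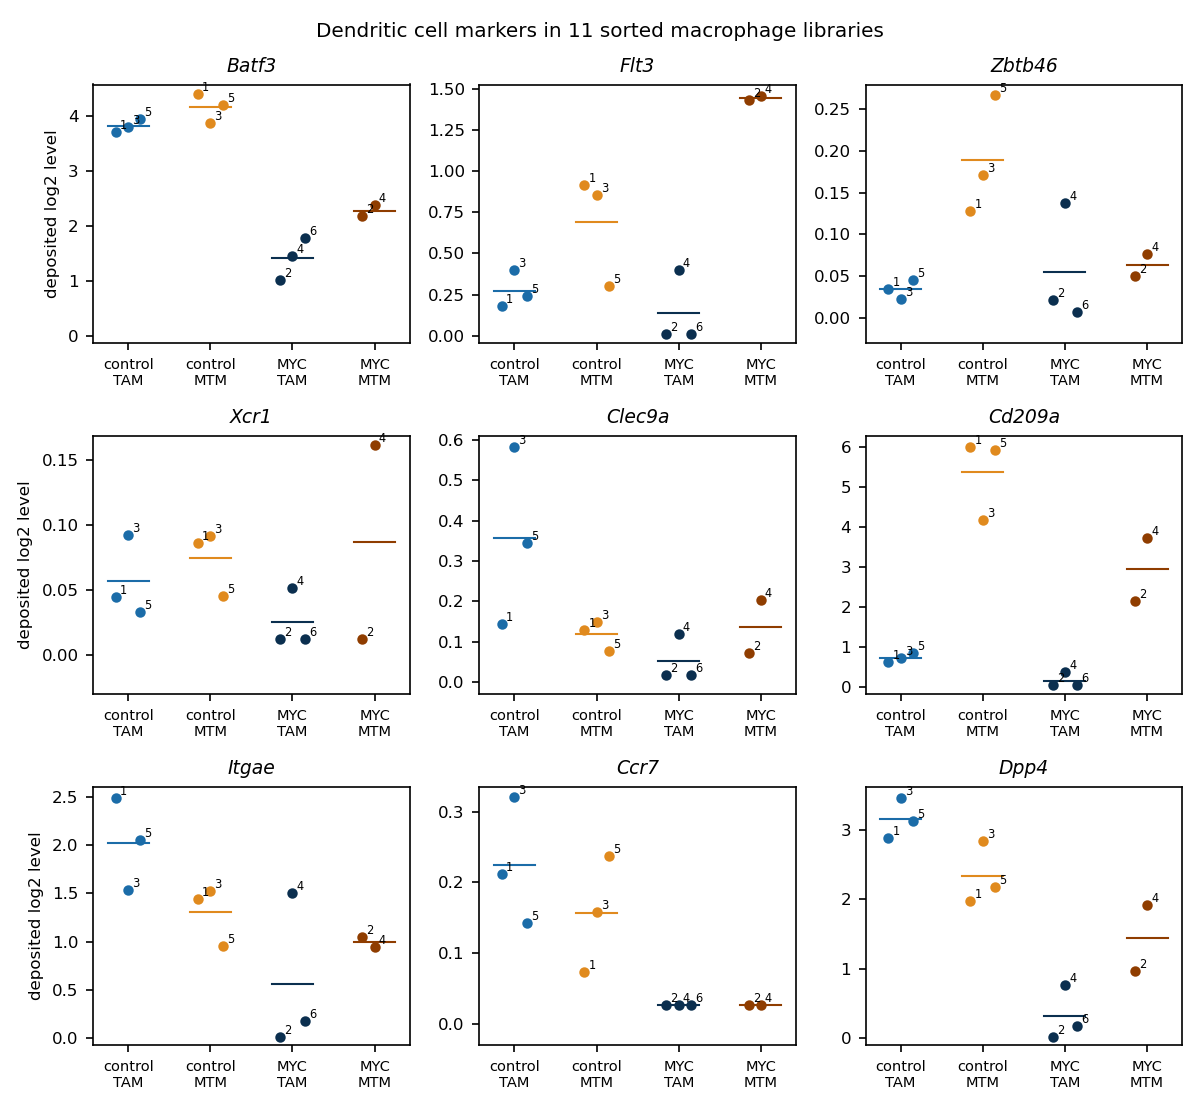
Deposited log2 level (y axis, own scale per panel) of each of the 9 markers in control TAMs, control MTMs, MYC TAMs and MYC MTMs (x axis). Points are libraries labelled by mouse and short lines are group means. Batf3 and Dpp4 are lower in every MYC TAM library than in every control TAM library, and Cd209a is higher in every MTM library than in every TAM library.

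Over the 9 genes together, MYC TAM libraries held few reads. The sum was 2256, 2821 and 2472 reads in the control TAM libraries of mice 1, 3 and 5, and 4378, 2953 and 3978 in their MTM libraries. MYC TAMs of mice 2, 4 and 6 gave 42, 452 and 136, and MYC MTMs of mice 2 and 4 gave 938 and 1723. What was left in MYC TAMs differed between mice. Batf3 made up 92.9% of the marker reads in mouse 2 and 69.1% in mouse 6, but 11.5% in mouse 4, where Itgae and Dpp4 led. Mouse 2 had reads for 2 of the 9 markers, mouse 6 for 3 and mouse 4 for 8, against all 9 in each control library.

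**Figure D2:**
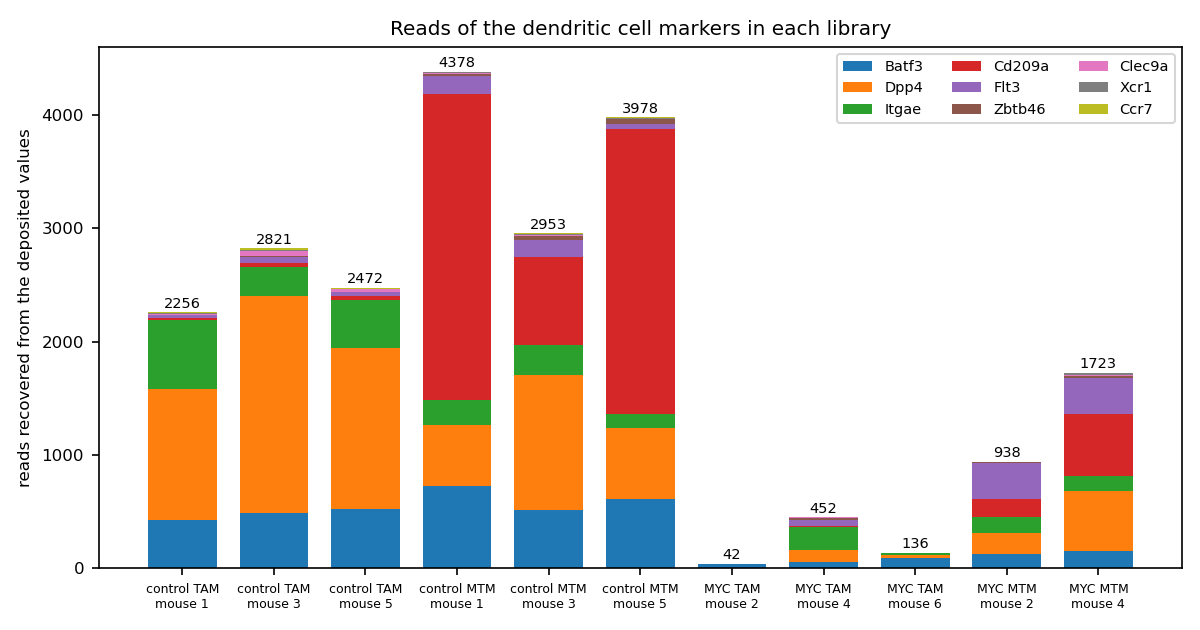
Reads of the 9 markers (y axis, stacked by gene, not scaled for depth) in each of the 11 libraries (x axis), with the total above each bar. The MYC TAM bars hold 42, 452 and 136 reads, and red Cd209a reads take up most of the control MTM bars of mice 1 and 5.

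Counted over the 9 markers, the comparisons differed in how many passed. A marker is called where limma's p, adjusted over all 17475 genes, is below 0.05, and differences are given as log2 ± SE with 3 libraries per group, or 2 for MYC MTMs. Between control TAMs and control MTMs, TAMs had 1 marker (Cd209a) called lower, against 1.63% of all genes, and none higher, against 0.744%. Between MYC TAMs and MYC MTMs, TAMs had 2 (Flt3 and Cd209a) called lower, against 3.82% of all genes, and none higher, against 0.664%. Between MYC and control TAMs, 4 (Batf3, Dpp4, Itgae and Ccr7) were called lower, against 12% of all genes, and none higher, against 3.89%. Between MYC and control MTMs, 1 (Batf3) was called lower, against 0.28% of all genes, and none higher, against 0.338%. The test of whether the cell type difference differed between genotypes (the difference of differences) called none of the 9 (1.24% of all genes), with 3 markers at an unadjusted p below 0.05 and none called with limma voom, a fit of the recovered reads. The median difference of the markers was -0.018, -0.44, -0.31 and -0.13 in the 4 pairwise comparisons in that order, against -0.0038, -0.012, -0.020 and -0.021 for all genes. Libraries of the compared groups did not overlap for several markers. In control mice this held for 2 markers lower (12% of all genes) and 2 higher (6.9%) in TAMs, and in MYC mice for 4 lower (23.5%) and none higher (6.82%). With MYC against control it held in TAMs for 6 lower (22.1%) and none higher (8.03%), and in MTMs for 5 lower (20.1%) and 1, Flt3, higher (11.1%). These comparisons share groups of libraries, so their values are not independent of each other. Median centring brought the libraries to a common median over the genes with a read in every library, not over all genes. It moved the all-gene median to 0.27 between MYC and control TAMs and to 0.24 between MYC TAMs and MTMs, where Batf3, Dpp4 and Itgae, and Flt3 and Cd209a, were called lower again. After that centring Zbtb46 was called higher in MYC TAMs than in control TAMs (0.31, adjusted p = 0.00530) and MYC MTMs (0.24, adjusted p = 0.0432), and Xcr1 higher than in control TAMs (0.26, adjusted p = 0.0145). Centring shifts every gene of a comparison by the same amount, genes without a read included. Zbtb46 had 3, 20 and 0 reads in MYC TAMs against 5, 3 and 7 in control TAMs, and Xcr1 had 0, 3 and 0 against 3, 8 and 2. Reads scaled to the median depth were 1.77-fold higher for Zbtb46 and 3.58-fold lower for Xcr1 in MYC than in control TAMs.

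**Figure D3:**
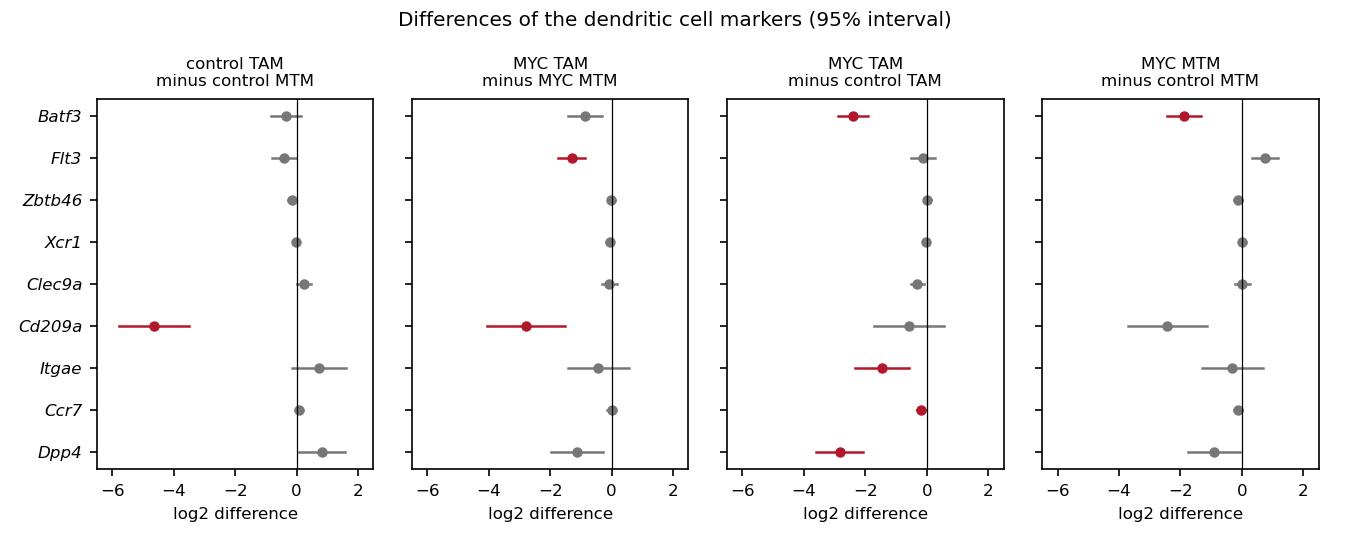
Log2 difference (x axis) of each of the 9 markers (y axis) in the 4 pairwise comparisons, with points for limma estimates and lines for 95% intervals, red where the adjusted p is below 0.05. Red points lie to the left of 0 in every panel, at 1, 2, 4 and 1 markers from left to right.

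Batf3, the factor that commits cDC1s, was the 1 marker called lower in MYC macrophages of both kinds. Its gene lies on chromosome 1 (bases 191097847 to 191108945, plus strand, GRCm38). It had 424, 485 and 519 reads in the control TAM libraries of mice 1, 3 and 5, and 722, 511 and 609 in the control MTM libraries. MYC TAMs of mice 2, 4 and 6 gave 39, 52 and 94 reads, and MYC MTMs of mice 2 and 4 gave 129 and 155. Every MYC library thus lay below every control library, and every MYC TAM library below every MYC MTM library. With reads scaled to the median depth, Batf3 was 7.67-fold lower in MYC than in control TAMs and 4.47-fold lower in MYC than in control MTMs. On the log2 scale the difference in TAMs was -2.40 ± 0.22 (SE; limma, adjusted p = 0.000142), and it passed in all 20 alternatives (adjusted p up to 0.00488). In MTMs it was -1.89 ± 0.25 (limma, adjusted p = 0.0124). The MTM call was lost without the control MTM library of mouse 5 (adjusted p = 0.0581), without the MYC MTM library of mouse 2 (0.147) or mouse 4 (0.0967), and in a fit of the compared groups alone (0.111), over a range of 0.00526 to 0.147. Between TAMs and MTMs Batf3 differed by -0.34 ± 0.22 in control mice (adjusted p = 0.693) and by -0.85 ± 0.25 in MYC mice (adjusted p = 0.0970), and the latter passed without the MYC TAM library of mouse 6 (adjusted p = 0.0384, in a range of 0.0384 to 0.456). The difference between those differences was -0.51 ± 0.33 (adjusted p = 0.684). Jun, which encodes an AP-1 partner of BATF factors, had at most 12 reads in a library and was not called in any of the 5 comparisons.

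Irf8, the other factor of cDC1s, was abundant in all libraries and did not follow Batf3 throughout. Its level in TAMs was 5.69 ± 0.12 for control and 4.83 ± 0.08 for MYC mice, and in MTMs 4.62 ± 0.08 and 4.94 ± 0.12. TAMs of control mice exceeded their MTMs (1.06 ± 0.12, limma adjusted p = 0.00168), whereas Batf3 was not called in that comparison. Irf8 was lower in MYC than in control TAMs (-0.86 ± 0.12, adjusted p = 0.00147). The TAM and MTM difference of Irf8 itself differed between genotypes by -1.17 ± 0.18 (limma, adjusted p = 0.0184). That call was lost after median centring (-0.97, adjusted p = 0.111). Zbtb46, a factor of conventional dendritic cells that is little used by macrophages (chromosome 2, bases 181387762 to 181459426, minus strand), was near the detection limit. Control TAMs gave 5, 3 and 7 reads and control MTMs 22, 32 and 48. MYC TAMs of mice 2, 4 and 6 gave 3, 20 and 0 reads, and MYC MTMs 8 and 13. Its control MTM libraries lay above all control TAM and MYC MTM libraries, with 6.83-fold and 3.35-fold more scaled reads, but the log2 differences of -0.15 ± 0.05 (limma, adjusted p = 0.196) and -0.13 ± 0.06 (adjusted p = 0.497) did not pass. MYC TAMs overlapped both MYC MTMs and control TAMs in Zbtb46, at differences of -0.0079 ± 0.056 and 0.021 ± 0.050.

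Flt3 encodes the receptor through which FLT3 ligand sustains dendritic cell precursors (chromosome 5, bases 147330741 to 147400489, minus strand). It had 23, 59 and 32 reads in the control TAM libraries of mice 1, 3 and 5, and 159, 152 and 40 in their MTM libraries. MYC TAMs of mice 2, 4 and 6 gave 0, 48 and 0 reads, and MYC MTMs of mice 2 and 4 gave 316 and 324. The MYC MTM libraries were thus the highest of all, and the MYC TAM library of mouse 4 was the only MYC TAM library with reads. Within MYC mice Flt3 was 16.3-fold lower in TAMs by scaled reads and differed by -1.30 ± 0.19 on the log2 scale (limma, adjusted p = 0.00613). That call was lost without the MYC MTM library of mouse 2 (adjusted p = 0.0619) or mouse 4 (0.0596) and in a fit of the compared groups alone (0.0716), over a range of 0.00335 to 0.0716. In control mice the same difference was -0.42 ± 0.17 (adjusted p = 0.370), and the test of the difference between genotypes gave -0.89 ± 0.26 (adjusted p = 0.187). MYC MTMs lay above control MTMs by 0.75 ± 0.19, which did not pass (adjusted p = 0.159). Its ligand gene Flt3l was measured at 28 to 101 reads in every library and was called in none of the comparisons, with log2 differences from -0.30 to 0.27.

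The cDC1 surface receptors were barely detected in any of the sorted populations. Clec9a, which senses actin exposed by dead cells (chromosome 6, bases 129408862 to 129424763, plus strand), had 9, 49 and 25 reads in the TAMs of control mice 1, 3 and 5, whose MTMs gave 8, 10 and 4. For MYC mice 2, 4 and 6 the TAM reads were 0, 6 and 0, and MTMs of mice 2 and 4 gave 4 and 14. All control TAM libraries lay above all MYC TAM libraries, and scaled reads were 11.4-fold lower in MYC TAMs. The log2 difference of -0.31 ± 0.10 missed the threshold (limma, adjusted p = 0.0628), but Clec9a was called on recovered reads with limma voom (-4.32, adjusted p = 0.0217), after quantile normalisation (0.0299), with a pseudocount of 0.1 (0.0365) and without the control TAM library of mouse 1 (0.0128). Over its 19 alternatives the adjusted p ran from 0.0128 to 0.879. TAMs and MTMs of control mice overlapped in Clec9a (0.24 ± 0.10, adjusted p = 0.349). In the annotation, Clec9a shares 184 exon bases with Clec1b on the same strand, and how reads in them were assigned is not given in the sources used here. Xcr1, the receptor for the chemokine XCL1 (chromosome 9, bases 123852315 to 123862029, minus strand), had 0 to 8 reads in 10 libraries and 15 in the MYC MTM library of mouse 4. Its groups overlapped in each of the 4 pairwise comparisons, and no difference passed at this depth, the largest being -0.062 ± 0.050 between MYC TAMs and MTMs (adjusted p = 0.587). Xcl1 had 8 to 17 reads in control TAMs and 0, 2 and 0 in MYC TAMs and was lower there (-0.70 ± 0.20, adjusted p = 0.0413), a call lost after median centring (adjusted p = 0.0933).

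Other cDC1 genes did not move as a block. Of 11 measured, 4 were called lower (12% of all genes) and 2 higher (3.89%) in MYC than in control TAMs. The median difference of the 11 was -0.73 against -0.02 for all genes. Cadm1, an adhesion molecule of cDC1s, fell most among them (-2.37 ± 0.24, limma adjusted p = 0.000209), and Wdfy4, needed for cross-presentation, fell by 1.37 (SE 0.18, adjusted p = 0.000985). Id2, a factor shared with lymphoid cells, was higher (0.99 ± 0.26, adjusted p = 0.0282). Between control TAMs and MTMs, Irf8 and Cadm1 (1.13 ± 0.24, adjusted p = 0.0392) were higher in TAMs and Naaa lower (-1.81 ± 0.25, adjusted p = 0.00513). Cadm1 was not called there after quantile normalisation (adjusted p = 0.0544). No cDC1 gene was called between MYC and control MTMs, where Batf3 was the only one of the 9 markers called.

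Cd209a, a C-type lectin of the DC-SIGN family and a common marker of monocyte-derived dendritic cells, was a transcript of MTMs in these libraries. The gene lies on chromosome 8 (bases 3743397 to 3748984, minus strand), and none of its 50-base words occurs in another annotated gene. The TAMs of control mice 1, 3 and 5 gave 22, 28 and 33 reads, whereas their MTMs gave 2692, 779 and 2515. MYC TAMs of mice 2, 4 and 6 gave 0, 10 and 0 reads, against 154 and 547 from the MTMs of mice 2 and 4. MTM libraries were higher without overlap in both genotypes, and the range within the MTM groups was wide. Scaled reads were 73.5-fold lower in TAMs of control mice and 85.7-fold lower in TAMs of MYC mice than in the MTMs of the same genotype. The log2 difference was -4.64 ± 0.51 in control mice (limma, adjusted p = 0.00135), with a call in all 21 alternatives, and -2.79 ± 0.57 in MYC mice (adjusted p = 0.0258). In MYC mice the call was lost without the TAM library of mouse 2 (adjusted p = 0.0688) or mouse 4 (0.0697), without the MTM library of mouse 4 (0.230), in a fit of the compared groups alone (0.120), and with the mouse as a fixed block, which leaves mouse 6 uninformative (0.0678). MYC MTMs lay below control MTMs by -2.42 ± 0.57 (5.94-fold in scaled reads, adjusted p = 0.119), a difference that passed without the control MTM library of mouse 3 (adjusted p = 0.0375). In TAMs the genotypes differed by -0.57 ± 0.51 (limma, adjusted p = 0.478), which passed in a fit of those groups alone (adjusted p = 0.0466). All MYC TAM libraries lay below all control TAM libraries, with 6.9-fold fewer scaled reads. At such low levels the constant of 1.00 in the deposited values narrows log2 differences. The difference between the genotypes' cell type differences, 1.85 ± 0.76, did not pass (adjusted p = 0.402), and its sign turned on recovered reads with limma voom (-1.75). Over its alternatives, the adjusted p in MYC mice ran from 0.00313 to 0.230.

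The neighbouring Cd209 genes on chromosome 8 had the same direction. Of 5 measured, TAMs of control mice had 4 called lower than MTMs (1.63% of all genes), with a median difference of -2.71. TAMs of MYC mice had 3 called lower (3.82% of all genes), with a median of -1.84. Cd209f had 10, 9 and 3 reads in the control TAM libraries against 9650, 5005 and 7489 in the MTM libraries (-6.75 ± 0.27, limma adjusted p = 8.68e-06). In MYC mice TAMs gave 59, 42 and 14 reads and MTMs 2749 and 3173 (-4.92 ± 0.30, adjusted p = 0.000188). Cd209d had at most 3 reads in a control TAM library and none in the MYC TAM libraries, against 1168 to 2767 and 546 to 843 in the MTM libraries. Its differences were -5.99 ± 0.30 (adjusted p = 2.78e-05) and -4.62 ± 0.34 (adjusted p = 0.000254). Cd209b was lower in TAMs of both genotypes, Cd209e in control TAMs, and Cd209c missed the threshold in control mice (-1.58 ± 0.35, adjusted p = 0.0537) and was -0.13 ± 0.40 in MYC mice (adjusted p = 0.899). No member of the family was called between genotypes in either cell type. In MTMs, however, the median difference between MYC and control mice was -1.35, against -0.021 for all genes. Both MYC MTM libraries lay below every control MTM library for each of the 5 genes, which held for 20.1% of all genes. In TAMs the median between genotypes was 0.097, against -0.020 for all genes. Of the 50-base words of Cd209f, 29.8% also occur in Cd209g, which was not analysed here, and how such reads were assigned is not given in the sources used here.

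**Figure D4:**
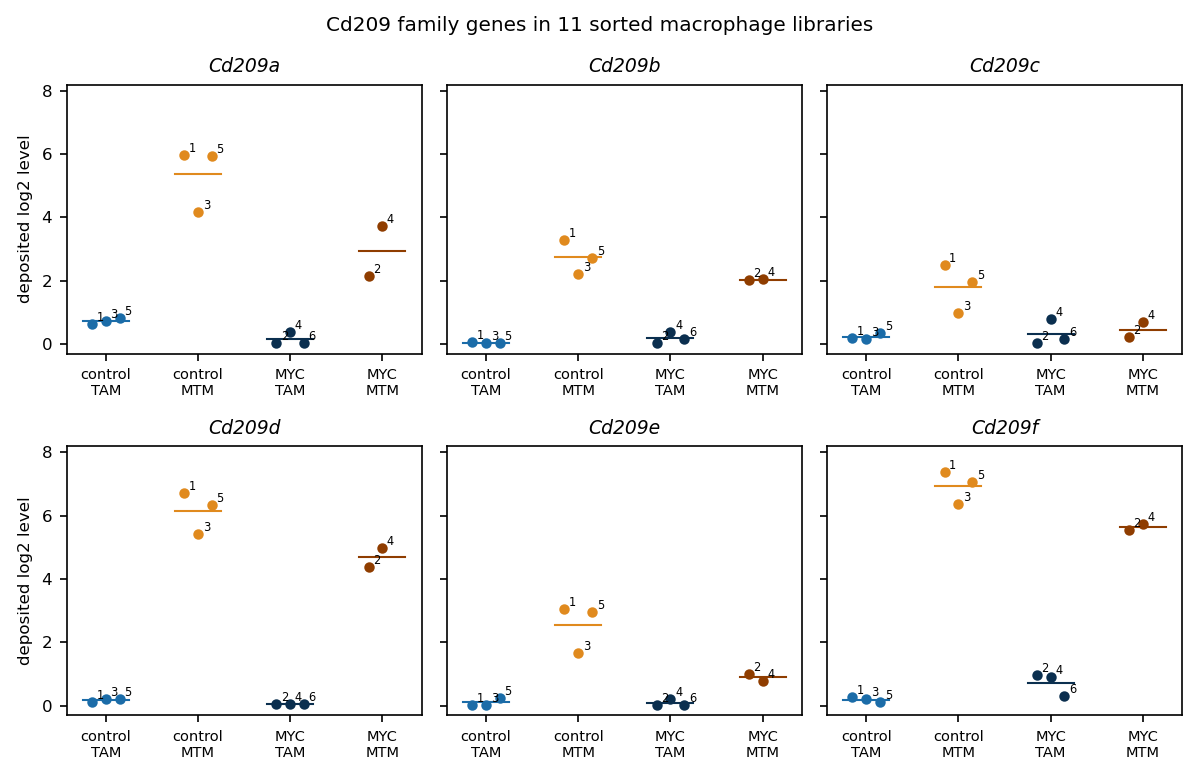
Deposited log2 level (y axis, shared scale) of Cd209a and 5 related genes in the 4 groups (x axis). Points are libraries labelled by mouse and short lines are group means. Each gene is higher in control MTMs than in control TAMs, and Cd209c is the gene whose MYC TAM and MYC MTM libraries overlap.

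Several cDC2 genes shared the MTM pattern of Cd209a. Of 12 measured, TAMs of control mice had 3 called lower (1.63% of all genes) and 1 higher (0.744%) than MTMs, and TAMs of MYC mice had 6 lower (3.82%). The 6 became 3 after quantile normalisation and 4 after median centring. The lectin genes Clec10a (-3.72 ± 0.30, limma adjusted p = 0.000286) and Mgl2 (-3.72 ± 0.38, adjusted p = 0.000817) led in control mice, and again in MYC mice (-3.41 ± 0.33, adjusted p = 0.000884, and -3.36 ± 0.42, adjusted p = 0.00250). Both encode macrophage galactose-type lectins that macrophages also make. Irf4, the factor of cDC2s, had 4 to 11 reads in control TAMs and 73 to 91 in control MTMs, and 0 to 14 against 75 to 87 in MYC mice. It was lower in TAMs of control mice (-0.61 ± 0.07, adjusted p = 0.00197) and of MYC mice (-0.55 ± 0.08, adjusted p = 0.00573), the latter not after median centring (adjusted p = 0.0705) and the former not on recovered reads (adjusted p = 0.0847). Mgl2 was also lower in MYC than in control macrophages of both kinds (-2.87 ± 0.38 in TAMs, adjusted p = 0.000996, and -3.24 ± 0.42 in MTMs, adjusted p = 0.0118). Tbx21 was the cDC2 gene higher in control TAMs (0.48 ± 0.09, adjusted p = 0.0193), a factor that NK and T cells also make, and it was not called there on recovered reads (adjusted p = 0.0967).

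Dpp4, the serine protease and adenosine deaminase receptor CD26 (chromosome 2, bases 62330073 to 62412231, minus strand), showed the largest log2 fall of the 9 markers in MYC TAMs. It had 1158, 1912 and 1428 reads in the control TAM libraries of mice 1, 3 and 5, and 540, 1193 and 629 in their MTM libraries. From MYC TAMs of mice 2, 4 and 6 came 0, 108 and 25 reads, and from MYC MTMs of mice 2 and 4 came 180 and 528. The most of any MYC TAM library was thus below the least of any other group. Scaled reads were 29.4-fold lower in MYC than in control TAMs, and the log2 difference of -2.84 ± 0.34 (limma, adjusted p = 0.000584) passed in all 20 alternatives, with adjusted p up to 0.00500. In MTMs the same difference was -0.89 ± 0.38 (adjusted p = 0.457), and it was -0.42 without the MYC MTM library of mouse 2 and -1.37 without that of mouse 4. TAMs lay above MTMs in control mice (0.82 ± 0.34, adjusted p = 0.357) and below them in MYC mice (-1.12 ± 0.38, adjusted p = 0.154), without overlap either time. The value in MYC mice was -1.60 without the MTM library of mouse 2 and -0.65 without that of mouse 4. The difference between these differences, -1.94 ± 0.51, did not pass (adjusted p = 0.127). Ada, whose product binds DPP4, was also lower in MYC TAMs (-0.98 ± 0.22, adjusted p = 0.0142). The antisense gene Gm13561 shares 232 exon bases with Dpp4, the kit kept strand, and the strand setting of the counting is not given in the sources used here.

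Itgae encodes the integrin alpha chain CD103, which pairs with integrin beta 7 to bind E-cadherin (chromosome 11, bases 73090583 to 73147446, plus strand). It had 604, 263 and 421 reads in the control TAM libraries of mice 1, 3 and 5, and 226, 262 and 121 in their MTM libraries. From MYC TAMs of mice 2, 4 and 6 came 0, 205 and 17 reads, and from MYC MTMs of mice 2 and 4 came 147 and 127. All MYC TAM libraries lay below all control TAM libraries. Mouse 4 was close to the lowest control, at 205 against 263 reads, or 251 against 261 when scaled to the median depth. Scaled reads were 4.97-fold lower in MYC TAMs and the log2 difference was -1.46 ± 0.39 (limma, adjusted p = 0.0327). The call was lost in 8 of 20 alternatives, over which the adjusted p ran from 0.00677 to 0.121. These were quantile normalisation, a fit of the compared groups alone, and leaving out the control TAM library of mouse 1 (0.0994) or 5 (0.0890), the MYC TAM library of mouse 2 (0.109) or 6 (0.0885), or the MYC MTM library of mouse 2 (0.0542) or 4 (0.0543). TAMs of control mice lay above their MTMs without overlap (0.72 ± 0.39, adjusted p = 0.584), and MYC TAMs overlapped MYC MTMs (-0.44 ± 0.44, adjusted p = 0.645). The partner chain and the ligand moved apart in MYC TAMs. Itgb7 was higher than in control TAMs (1.25 ± 0.35, adjusted p = 0.0396) and Cdh1, the E-cadherin gene, was lower (-3.61 ± 0.34, adjusted p = 0.000149). Against MYC MTMs both were lower, Itgb7 by -1.81 ± 0.39 (adjusted p = 0.0331, lost after quantile normalisation at 0.107) and Cdh1 by -2.19 ± 0.38 (adjusted p = 0.0119).

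Ccr7, the receptor that guides mature dendritic cells to lymph nodes (chromosome 11, bases 99144196 to 99155077, minus strand), was at a handful of reads in control libraries and had no read in MYC libraries. The TAMs of control mice 1, 3 and 5 gave 8, 14 and 5 reads and their MTMs 2, 6 and 9, while each of the 5 MYC libraries gave 0. With a floor of 3 reads per library, it was at least 2.92-fold lower in MYC than in control TAMs. The log2 difference was -0.20 ± 0.06 (limma, adjusted p = 0.0430), but it turned to 0.09 (adjusted p = 0.336) after median centring. The call was lost in 11 of 19 alternatives, over which the adjusted p ran from 0.00893 to 0.336. Among these, leaving out a single library gave 0.0803 and 0.143 (control TAM mice 1 and 3), 0.0585 (control MTM mouse 3), 0.0974, 0.0690 and 0.0787 (MYC TAM mice 2, 4 and 6) and 0.0702 and 0.0703 (MYC MTM mice 2 and 4). In MTMs the difference of -0.13 ± 0.06 did not pass (adjusted p = 0.557). Ccl21a, which encodes a ligand, had 0 to 4 reads in control libraries, while MYC TAMs gave 0 to 63 and MYC MTMs 37 and 40, and it was called in none of the comparisons.

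The genes of mature, migrating dendritic cells did not follow Ccr7 as a group. Of 22 measured, 5 were called lower (12% of all genes) and 2 higher (3.89%) in MYC than in control TAMs, with a median difference of -0.33. After median centring the same list had 3 lower and 4 higher, when 1496 of all genes were called lower and 5927 higher. H2-M2, a non-classical class I gene, was lower (-4.41 ± 0.37, limma adjusted p = 8.94e-05), and Il12b, the IL-12 p40 subunit, was lower as well (-2.42 ± 0.44, adjusted p = 0.00578). Cd274, encoding PD-L1, rose by 2.90 ± 0.27 (adjusted p = 0.000151) and Cd200 by 2.23 ± 0.21 (adjusted p = 0.000173). Cd274 was also the 1 gene of the list called between MYC and control MTMs (2.64 ± 0.30, adjusted p = 0.00734). Of 21 measured genes common to conventional dendritic cells, 7 were lower (12% of all genes) and 1 higher (3.89%) in MYC TAMs. After median centring 5 were lower and 6 higher, and P2ry10 turned from -0.24 to 0.049. Kit, the stem cell factor receptor, fell by 2.42 (SE 0.31, adjusted p = 0.000955), with 6, 63 and 9 reads in the MYC TAMs of mice 2, 4 and 6. Anpep, encoding the aminopeptidase CD13, rose (2.68 ± 0.43, adjusted p = 0.00299). In control mice Itgax, encoding the CD11c chain, was higher in TAMs than in MTMs (2.28 ± 0.31, adjusted p = 0.00399), as it was in MYC mice (1.97 ± 0.34, adjusted p = 0.0124). Its level, 8.53 ± 0.14 in control TAMs and 7.09 ± 0.47 in MYC TAMs, was above that of each of the 9 markers. Of 11 plasmacytoid dendritic cell genes, 4 were lower in MYC TAMs (12% of all genes), among them Siglech (-1.40 ± 0.17, adjusted p = 0.000640) and Lag3 (-2.31 ± 0.31, adjusted p = 0.00113).

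Transcripts of other cell types were followed in the same groups. Of all genes, 12% were called lower and 3.89% higher between MYC and control TAMs. A single lower call on a list of 7 or 10 genes is near that share. Between MYC and control TAMs, 7 of 12 epithelial genes were lower, among them Elf3 and Epcam, and their summed linear level was 47.6 to 619 in MYC TAMs against 1241 to 2742 in control TAMs. Of 16 T cell genes, 8 were lower and 1 (Il7r) higher there. Cd3e was without a read in the MYC TAM libraries, where 5 of the 16 had a read in every library, against all 16 in control TAMs. The summed level, which includes Il7r (higher by 3.41 ± 0.32), was 42.8 to 81.4 against 51.2 to 100.6. Of 7 NK cell genes 4 were lower (0.225 to 1.72 against 29.8 to 84.6), with Gzma and Prf1 without a read in MYC TAMs. Of 9 B and plasma cell genes 2 were lower (2.06 to 8.35 against 10.2 to 24.9), of which Ms4a1 was not called after median centring (adjusted p = 0.629) and Cd79b not after quantile normalisation (adjusted p = 0.117). Median centring gave 1 lower and 4 higher on that list, where it called 1496 of all genes lower and 5927 higher. Among 28 macrophage core genes 9 were lower and 3 higher, including Csf1r (-2.57 ± 0.20, limma adjusted p = 6.34e-05), Dok3 (-1.82 ± 0.17, adjusted p = 0.000173) and, higher, Cd68 (1.95 ± 0.15, adjusted p = 6.61e-05), while Mertk was not called (adjusted p = 0.112). Of 10 monocyte genes 1 (Cx3cr1) was lower and 2 (Chi3l3 and F13a1) higher. Of 7 neutrophil genes Ltf was lower and Mmp8 and S100a8, whose promoter drives the Cre, higher (S100a8 adjusted p = 0.0430 with limma). Of 9 fibroblast genes none, of 7 endothelial genes 1 (Pecam1, lower), of 6 mast cell and eosinophil genes 1 (Cpa3, higher) and of 7 progenitor genes 1 (Cd34, lower) were called. Pecam1 was not called after median centring (adjusted p = 0.262), which called 3 endothelial genes higher, and 4 progenitor genes higher and 1 lower. Cpa3 was not called with limma voom (adjusted p = 0.0797). T and NK cells can express Itgae, Dpp4 and Ccr7, and epithelial cells Dpp4 and Cdh1, and a gate on CD45+ F4/80+ cells is meant to leave these cells out. The part of these transcripts in the lower marker levels of MYC TAMs was not tested.

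**Figure D5:**
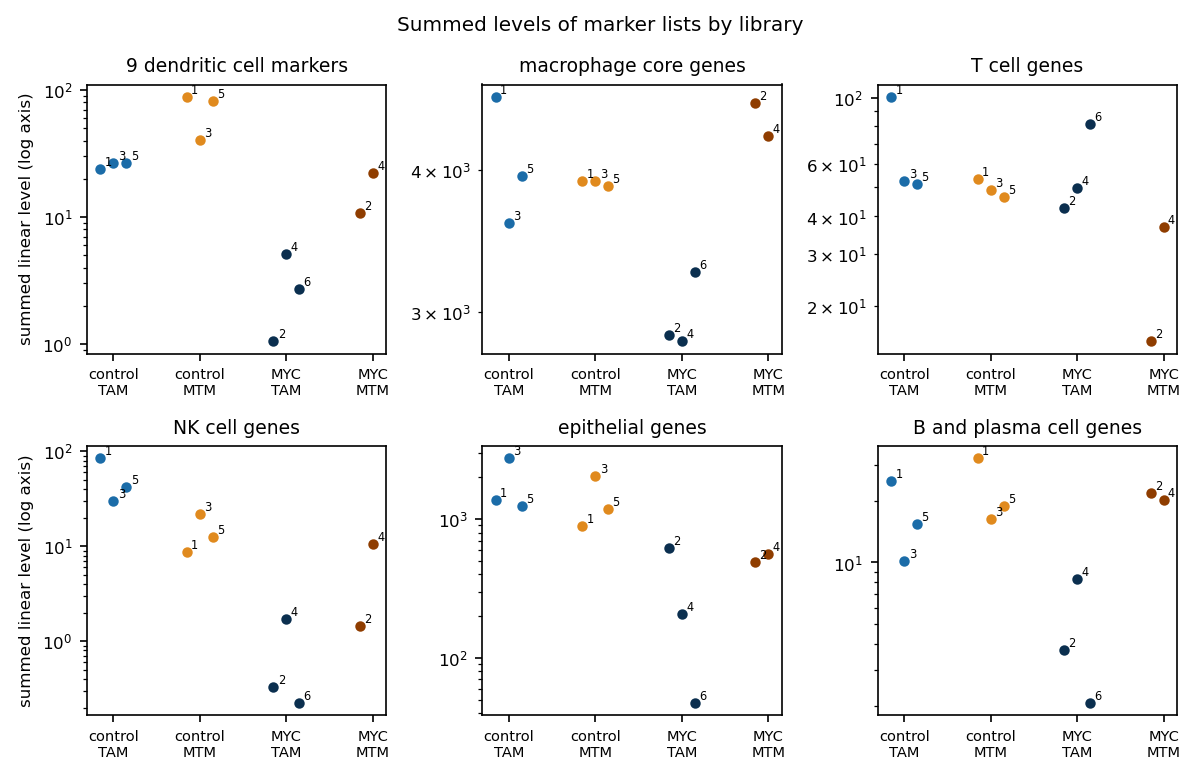
Summed linear level of the 9 dendritic cell markers and of 5 marker lists (y axis, log scale, own range per panel) in the 4 groups (x axis), with libraries as points labelled by mouse. The marker, macrophage core, NK cell, epithelial, and B and plasma cell sums are lower in every MYC TAM library than in every control TAM library, while the T cell sums overlap.

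The genes most like each marker were taken as those with the highest Pearson r over the 11 libraries among 8737 named genes with a mean level of at least 1. The libraries share groups, mice and depth, so r is given as a description. Batf3 was closest to Rtn4ip1 (r = 0.971), Aco1 (0.964) and Sectm1a (0.964). Dpp4 was closest to Ets1 (0.976), Nfkbie (0.976) and Zfp809 (0.972), and Itgae to Zfp658 (0.961), Mbtd1 (0.927) and Dennd2c (0.911). Cd209a followed Aldh1a2 (0.985), Cd226 (0.984) and Gfra2 (0.980). For Flt3 the nearest genes were Setdb2 (0.940), Thbs3 (0.902) and Rras (0.899). Ccr7 (Cd34, Lgr6 and Arhgef16), Clec9a (Wdr4, Derl3 and Slc39a6), Zbtb46 (Slc22a21, Ralgapa1 and Zfp706) and Xcr1 (Mettl5, Ttc14 and Cenpl) had their highest r between 0.885 and 0.956, on few reads. Among the markers themselves r was highest between Batf3 and Dpp4 (0.859), Ccr7 and Dpp4 (0.807) and Itgae and Dpp4 (0.787), and it was 0.09 between Flt3 and Dpp4.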

How the data were processed

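Messenger RNA of 11 sorted macrophage libraries was measured by poly-A selected, stranded sequencing from 500 ng of RNA with integrity numbers of 3.3 to 9.6 and 8 PCR cycles, per the labels' protocols. The submitters' processing notes name HISAT2, the build mm10 (GRCm38.p5) and, without a role, DESeq2. The authors deposited log2 expression values for 17475 genes. Their formula is not given in the sources used here and was inferred from the values. They behaved as the log2 of 1.00 plus a read number scaled for depth and gene length, and whole reads were recovered for 100% of genes within a tolerance of 0.05.

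The 9 genes, the gene lists and the tests were chosen with earlier results of these data known. The deposited values of all 11 libraries were fitted with limma 3.58.1 (R 4.3.3), with 1 mean per group, a variance trend, no replicate block and 5 two-sided contrasts. P-values were adjusted by Benjamini-Hochberg over 17475 genes, and an adjusted p below 0.05 was called. The fit was also run on simulated data with independent noise, in which only genes with a mean level above 1 were changed. That run does not cover markers at the edge of detection or libraries of the same mouse. All 9 genes are named, and from each list at most 4 called genes with the smallest adjusted p, plus lineage factors, partners, ligands, Cd209 genes and macrophage identity genes. Some list genes are not reported here by name. Of 238 genes on the lists and the marker set, 18 were not matched and 8 were matched through an older symbol. Fold changes of reads use recovered reads scaled to the median depth, with a floor of 3 reads per library for groups without reads.

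TAM and MTM libraries with the same number are from the same mouse per the labels. Their deviations from the group means correlated at 0.176, 0.211 and 0.0779 in control mice and 0.0983 and 0.0379 in MYC mice. Alternatives were median centring (over the genes with a read in every library), quantile normalisation, a pseudocount of 0.1 and a filter at a mean of 1. Further alternatives were no trend, robust variances, only the groups compared, the mouse as a block and leaving out each library. A limma voom fit of recovered reads was chosen after seeing the data. Tables were handled with Python 3.11.15, pandas 2.3.3 and numpy 2.4.6, and figures drawn with matplotlib 3.10.9.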

Additional observations from a re-analysis of the deposited data

How the results depend on the processing

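Over all alternatives and all 5 comparisons, 831 values of single markers kept their direction and their side of the threshold and 24 turned sign. Sign turns included, 31 calls were lost and 10 gained. The calls of Batf3 and Dpp4 between MYC and control TAMs and of Cd209a between control TAMs and MTMs were never lost in the alternatives run. The number of markers called between MYC TAMs and MTMs, 2, became 1 with a filter at a mean of 1 (4 markers tested), 0 in a fit of the compared groups alone (90 genes called against 784), and 0 to 3 without 1 library. Between MYC and control TAMs it was 2 to 4 without 1 library. Between MYC and control MTMs it was 0 with the compared groups alone (0 genes called against 108, with 2513 genes at an unadjusted p below 0.05) and 0 to 2 without 1 library. With the mouse as a fixed replicate block, which uses only mice 2 and 4 for the MYC comparison, the count between MYC TAMs and MTMs was 1, Zbtb46 turned to 0.016 there, and no other marker's call than that of Cd209a changed. That block called 31 genes in the difference of differences against 216, and 255 against 414 and 476 against 784 between the cell types. The mouse as a random block changed no marker's call.

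Median centring turned Xcr1 to 0.030 between control TAMs and MTMs. Between MYC TAMs and MTMs it turned Zbtb46 to 0.24, Xcr1 to 0.19 and Clec9a to 0.16, between MYC and control TAMs Flt3 to 0.16, Xcr1 to 0.26 and Ccr7 to 0.092, and in the difference of differences Xcr1 to 0.16 and Ccr7 to 0.13. Of the genes it called, 84.3% were higher between MYC TAMs and MTMs and 79.9% between MYC and control TAMs, against 14.8% and 24.5% in the reported fits and 29.9% and 41.6% after quantile normalisation. Quantile normalisation turned Zbtb46 to -0.012 between MYC and control TAMs, and limma voom turned it to -0.70, Xcr1 between MYC and control MTMs to -1.17 and Cd209a in the difference of differences to -1.75. Without 1 library, Zbtb46 ran from -0.049 to 0.016 (MYC TAMs and MTMs) and from -0.020 to 0.045 (MYC and control TAMs). Xcr1 ran from -0.14 to 0.013 (MYC TAMs and MTMs), from -0.062 to 0.087 (MYC and control MTMs) and from -0.12 to 0.031 (difference of differences), and Clec9a from -0.047 to 0.084 (MYC and control MTMs). Median centring takes 1 constant off each library, so it shifts every gene of a comparison by the same amount, genes without a read included. Ccr7 thus turned with 0 reads in every MYC library. Zbtb46, Xcr1, Clec9a and Ccr7 had few reads, which limits what depth can show for them, and the cause of the turns in the other settings was not tested.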
